A study of Mus musculus with 21 samples.

Results

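Cytotoxic lymphocytes, which are NK cells and a part of the T cells, kill by pouring the content of granules onto a target cell. Perforin opens the membrane of the target, and granzymes enter through it and start cell death. Killing can also run through the death ligand Fasl, and the same cells release cytokines and chemokines that act on their neighbors. In the lung, NK cells are a regular part of the circulating and resident leukocytes. The 10 genes followed here belong to this equipment: the pore former Prf1, the granzymes Gzma, Gzmb and Gzmk, the granule membrane protein Nkg7, the death ligand Fasl, the cytokine Ifng, the chemokine Ccl5, and the activating receptors Ncr1 and Klrk1. They were taken by name from the 32285 genes of the count table, and their UMIs (unique molecular identifiers, 1 per captured RNA molecule) were summed per library in NK cells, T cells and the other leukocytes.

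The data were single-cell RNA profiles of mT/mG mice, whose own cells all carry tdTomato, so that host cells can be sorted apart from unlabelled MT-ret melanoma (MM) cells. Young adult males and females received MT-ret fragments under the skin. Primary tumors were resected and lung metastases taken later, and lungs of mT/mG mice without a tumor ("unchallenged") were the control tissue. Each tissue had 4 libraries of tdTomato+ cells, called TME (tumor microenvironment) for the tumors, and sorted tdTomato- MM cells gave 4 more. Replicate 1-3 of either tumor tissue is deposited under a shared sample label. Its mice have separate library names, which were summed here into 1 library per tissue. Primary tumor and metastasis came from the same mouse in replicates 5 and 6, shared mice in the replicate 1-3 sums, and came from different mice in replicate 4. Some sorts also removed CD45+ leukocytes. The labels do not say which, so the number of NK or T cells in a library was not read as their number in the tissue.

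After 5 library names with barcodes and counts identical to those of others were left out, 100359 cells of 16 libraries remained, and any 2 of them shared at most 1.47% of the barcodes of the smaller one. Metastasis TME replicate 6, used in the T cell test below, is identical to a library deposited as MM cells of metastasis under another mouse. It is also identical to metastasis TME replicate 8, deposited under a further mouse. Of the 1036 cells of replicate 6, 13 fell into the MM cell class and 319 (30.8%) into clusters left unnamed. The T cell test without replicate 6 called 0 members. Library totals ran from 1777036 to 60339415 UMIs. Cells were clustered without the member genes and named from markers that hold none of them. The NK-like cluster (1516 cells, called NK cells below) had 14 of 14 NK cell markers raised, and the T-like cluster (1066 cells, T cells below) 16 of 16 T cell markers. In unchallenged lungs the NK receptor gene Klrb1c stood at 615 to 1108 CPM (UMIs of the gene per 1000000 UMIs of the class) in NK cells and at 25.7 to 40.5 CPM in T cells, and the T cell receptor gene Cd3e at 9.51 to 16.9 against 412 to 599 CPM. Unchallenged lung replicate 6 stood apart with 25966 cells, a median of 1605 UMIs per cell, and NK cells of which 56.4% held UMIs of at least 2 of 4 myeloid markers. In the other NK libraries of at least 10 cells this share was 0.897% to 17.1%.

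The members lie on 7 chromosomes. In GRCm38 coordinates, Gzma is at chr13:113093825-113100981 and Gzmk at chr13:113171608-113225908, both on the minus strand, Prf1 at chr10:61297833-61304680 and Ifng at chr10:118441046-118445892, both on the plus strand, and Nkg7 at chr7:43437073-43438249 and Ncr1 at chr7:4337724-4345164, again both on the plus strand. Gzmb is at chr14:56258838-56262260, Fasl at chr1:161780689-161788495, Klrk1 at chr6:129610323-129623864 and Ccl5 at chr11:83525778-83530518, all on the minus strand. The RefSeq promoter table used here (GRCm38.p6) matched 9 of the 10 members, all but Ccl5. The 250 bases before the start are shown for 4 granule genes whose levels followed each other over the leukocyte classes (below), with the letters of factors known to regulate such genes in NK and T cells, the T-box factors Tbx21 and Eomes and the RUNX factors. Capitals mark AGGTGT (the T-box letters, or ACACCT where they are on the other strand) in Gzma (chr13:113100982-113101231, minus strand), Prf1 (chr10:61297586-61297835, plus strand) and Nkg7 (chr7:43436888-43437137, plus strand), and TGTGGT (the RUNX letters) in Gzmb (chr14:56262335-56262584, minus strand).
Gzma: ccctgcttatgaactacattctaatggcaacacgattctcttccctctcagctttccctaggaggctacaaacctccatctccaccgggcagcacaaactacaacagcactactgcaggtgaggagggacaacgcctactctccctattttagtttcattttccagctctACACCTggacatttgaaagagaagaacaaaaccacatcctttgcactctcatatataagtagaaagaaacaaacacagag
Prf1: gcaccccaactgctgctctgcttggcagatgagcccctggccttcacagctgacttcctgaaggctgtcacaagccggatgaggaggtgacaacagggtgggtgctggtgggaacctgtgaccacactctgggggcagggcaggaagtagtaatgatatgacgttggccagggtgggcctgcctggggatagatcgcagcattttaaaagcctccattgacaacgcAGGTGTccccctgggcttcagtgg
Nkg7: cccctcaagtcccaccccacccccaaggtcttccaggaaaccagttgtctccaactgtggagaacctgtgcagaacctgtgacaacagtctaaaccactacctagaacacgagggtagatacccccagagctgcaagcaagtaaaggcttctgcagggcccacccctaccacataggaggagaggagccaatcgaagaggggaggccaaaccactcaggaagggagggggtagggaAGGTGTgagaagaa
Gzmb: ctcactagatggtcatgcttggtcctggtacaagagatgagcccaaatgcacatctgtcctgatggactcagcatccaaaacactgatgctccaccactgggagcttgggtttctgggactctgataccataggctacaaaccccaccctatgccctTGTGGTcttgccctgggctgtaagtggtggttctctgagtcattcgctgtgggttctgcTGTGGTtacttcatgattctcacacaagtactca
Distances are from the RefSeq start, which lies inside the GENCODE gene in Nkg7, in Prf1 (by a few bases) and, farthest, in Gzmk, whose promoter window (chr13:113180966-113181215) is within the gene as given above, and outside it in Gzmb. The T-box letters began 80 bases before the start in Gzma, 24 in Prf1 and 14 in Nkg7, and the RUNX letters 93 and 34 bases before it in Gzmb. Searched on both strands, AGGTGT was in 4 of 9 member promoters (Gzma, Gzmk, Nkg7, Prf1) and in 11.8% of all 32851 promoters of this length. TGTGGT was in 6 of 9 (Gzma, Gzmb, Klrk1, Ncr1, Nkg7, Prf1) and in 14.0% of all. Fasl and Ifng, whose levels also followed those of the 4 genes shown, had neither the T-box nor the RUNX letters. Gzmk, whose levels followed those of the 4 genes least, had the T-box letters. No link between letters and levels was tested. TTCNNNGAA, the letters of STAT factors, was in 2 of 9 (Ifng, Nkg7) against 7.02%, and TGACGTCA, the CRE letters, in 0 of 9 against 1.55%. The T-box and RUNX letters can overlap, but did not in the promoters shown, and a match describes letters, not a bound site.

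Summed over the unchallenged lung libraries, NK cells held most UMIs of 9 members, and T cells most UMIs of Gzmk. NK cells were 3.69% of all cells there and held 82.5% of the 77907 Gzma UMIs, 79.4% of the 10221 Prf1 UMIs, 86.6% of the 4616 Ncr1 UMIs and 66.1% of the 102013 Ccl5 UMIs. T cells, 2.08% of the cells, held 22.1% of the Ccl5 UMIs and 79.4% of the 175 Gzmk UMIs. These shares are of sums and differ between libraries. Replicate 4 gave 43339 of the 64288 Gzma UMIs of NK cells and 131 Gzmk UMIs of T cells. In replicate 6 NK cells held 6274 Gzma UMIs, beside 2902 in alveolar macrophages and 2751 in ciliated cells, and T cells held 0 Gzmk UMIs against 5 in NK cells. Since a class is a cluster of these cells, the levels by class are a description and were not tested. By the share of cells with a UMI, after every cell was thinned to 1000 UMIs, 9 members were higher in all 3 lung NK libraries than in any library of another leukocyte class, and Gzmk was not. By CPM there were 8, because the Ccl5 ranges of NK and T cells overlapped. The share of all genes that meet either criterion was not computed, so these counts only describe the members.

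**Figure D1:**
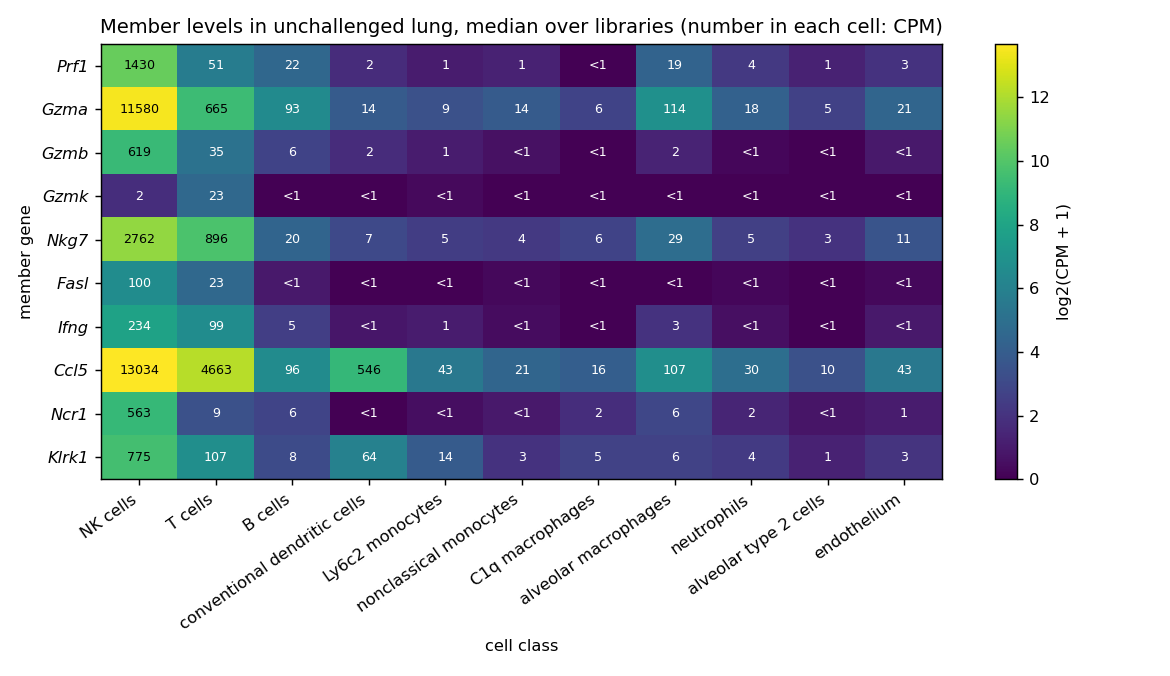
Levels of the 10 members (rows) in 9 leukocyte classes, alveolar type 2 cells and endothelium (columns) of unchallenged lung, as the median CPM over libraries with at least 10 cells; color is log2(CPM + 1). NK cells hold the highest median of every member except Gzmk, which is at 23.1 CPM in T cells and 2.41 CPM in NK cells, and Ccl5 and Klrk1 are also raised in conventional dendritic cells.

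Prf1 encodes perforin. In NK cells it was at 1592, 1430 and 1030 CPM in unchallenged lung replicates 4, 5 and 6 and at 1098 and 1036 CPM in metastasis replicates 1-3 and 4. In T cells of the same libraries it was at 122, 31.8 and 51.5 CPM in lung and 61.8 and 22.3 CPM in metastasis. The 51.5 CPM of lung replicate 6 were on 20 UMIs. In that library 1777 alveolar type 2 cells, which should lack Prf1, held 139 UMIs, so the T cell level there was not told apart from background. Inside each of these 5 libraries NK cells were above T cells, by 3.69 to 5.48 on the log2 scale (CPM + 1, median 4.30). After thinning, 71.4%, 63.9% and 49.2% of lung NK cells held a Prf1 UMI.

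Gzma and Gzmb are proteases that act inside the target, Gzmb by activating caspases. Gzma stood at 12878, 11580 and 6828 CPM in lung NK cells and at 12410 and 8501 CPM in metastasis NK cells. Its T cell levels were lower, 1245, 665 and 136 CPM in lung and 1328, 140 and 821 CPM in metastasis replicates 1-3, 4 and 6. T cells with UMIs of at least 2 NK markers were 28.6%, 6.67% and 20.0% of these metastasis libraries. They were 17.4%, 13.7% and 9.70% of lung replicates 4, 5 and 6, and their part in the levels was not tested. The NK minus T difference of Gzma was 3.22 to 5.91 on the log2 scale. Gzmb was at 943, 619 and 486 CPM in lung NK cells and 732 and 539 CPM in metastasis NK cells. In T cells it was at 125, 34.7 and 10.3 CPM in lung and 124, 18.6 and 78.2 CPM in metastasis, so that the NK minus T difference was 2.56 to 5.43. The 78.2 CPM, of metastasis replicate 6, were on fewer than 3 UMIs in 10 cells. The T cell levels of both genes in lung replicate 6, on 53 and 4 UMIs, were no higher than those of its alveolar type 2 cells (235 and 15.1 CPM), so they were not read as expression, and a difference that uses them compares NK cells with that background. UMIs of both genes were in 72.9%, 62.0% and 40.0% of lung NK cells and in 65.6% and 61.5% of metastasis NK cells, at full depth. In T cells of at least 10 cells per library both were in 1.21% to 20.0%. NK cells with Gzmb alone were 0% to 1.20% of a library, those with Gzma alone 23.0% to 53.3%, and those with neither 0% to 6.59%. Gzma was thus in most NK cells, so that few could hold Gzmb alone whatever the link of both genes. The 53.3% were of lung replicate 6, with a median of 1440 UMIs per NK cell, and the 23.0% of lung replicate 4, with 5072.

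Gzmk, a granzyme known from memory CD8 T cells, had the opposite distribution. NK cells held 3, 3 and 5 Gzmk UMIs in the lung libraries (0.891 to 5.44 CPM) and 0 and 1 in the metastasis libraries, where 0 UMIs among 32 cells allows up to 37.9 CPM. T cells held it at 64.2, 23.1 and 0 CPM in lung and at 108, 27.3 and 78.2 CPM in metastasis. The 108 CPM, of replicate 1-3, were on 7 UMIs, and the 78.2 CPM, of replicate 6, on fewer than 3 UMIs in 10 cells. T cells were above NK cells in 4 of 5 libraries. The exception was unchallenged lung replicate 6 with 0 UMIs in 165 T cells, which allows up to 7.72 CPM. Limits of this kind cover counting error only.

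Nkg7, a protein of the granule membrane needed for granule release, was at 3716, 2762 and 1666 CPM in lung NK cells and 3926 and 2235 CPM in metastasis NK cells. T cells had 1230, 896 and 191 CPM in lung and 1205, 501 and 977 CPM in metastasis, 1.59 to 3.12 below NK cells on the log2 scale. The T cell range in lung was also above that of every remaining leukocyte class, where the highest library had 88.5 CPM, in B cells. Fasl, which kills through the receptor Fas, was low in CPM, at 145, 100 and 82.7 in lung NK cells and 139 and 127 in metastasis NK cells. In T cells it was at 10.3 to 48.5 CPM in lung and 24.8 to 39.1 CPM in metastasis. The metastasis values of replicates 1-3 and 6 were each on fewer than 3 UMIs.

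Ifng, the cytokine that activates macrophages and raises antigen presentation, was at 249, 234 and 155 CPM in lung NK cells and at 265 and 519 CPM in metastasis NK cells. Both metastasis libraries were thus above the 3 lung libraries. In T cells it was at 99.5, 110 and 25.7 CPM in lung and at 30.9, 109 and 156 CPM in metastasis, where the groups overlap. The 30.9 CPM, of replicate 1-3, were on 2 UMIs. Few NK cells held an Ifng UMI after thinning, 18.0%, 17.2% and 10.1% in lung and 23.4% and 27.8% in metastasis.

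Ccl5 is a chemokine that attracts leukocytes. It was at 13529, 13034 and 5844 CPM in lung NK cells and at 18129 and 15282 CPM in metastasis NK cells, so that again both metastasis libraries were above the 3 lung libraries. T cells had 10027, 4663 and 721 CPM in lung and 9932, 4612 and 6879 CPM in metastasis. The NK minus T difference of 0.43 to 3.02 was the smallest median, 1.48, among the 9 members that were higher in NK cells in 5 of 5 libraries.

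The receptors differed from each other. Ncr1 (NKp46) was at 869, 563 and 394 CPM in lung NK cells and 404 and 522 CPM in metastasis NK cells, and T cells of these tissues held 0 to 12.9 CPM, 4.83 to 9.14 lower on the log2 scale. Klrk1 (NKG2D) is known from NK cells and activated CD8 T cells. It was at 1036, 775 and 497 CPM in lung NK cells and at 808 and 1070 CPM in metastasis NK cells. T cells had 261, 107 and 100.4 CPM in lung and 278, 105 and 430 CPM in metastasis.

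**Figure D2:**
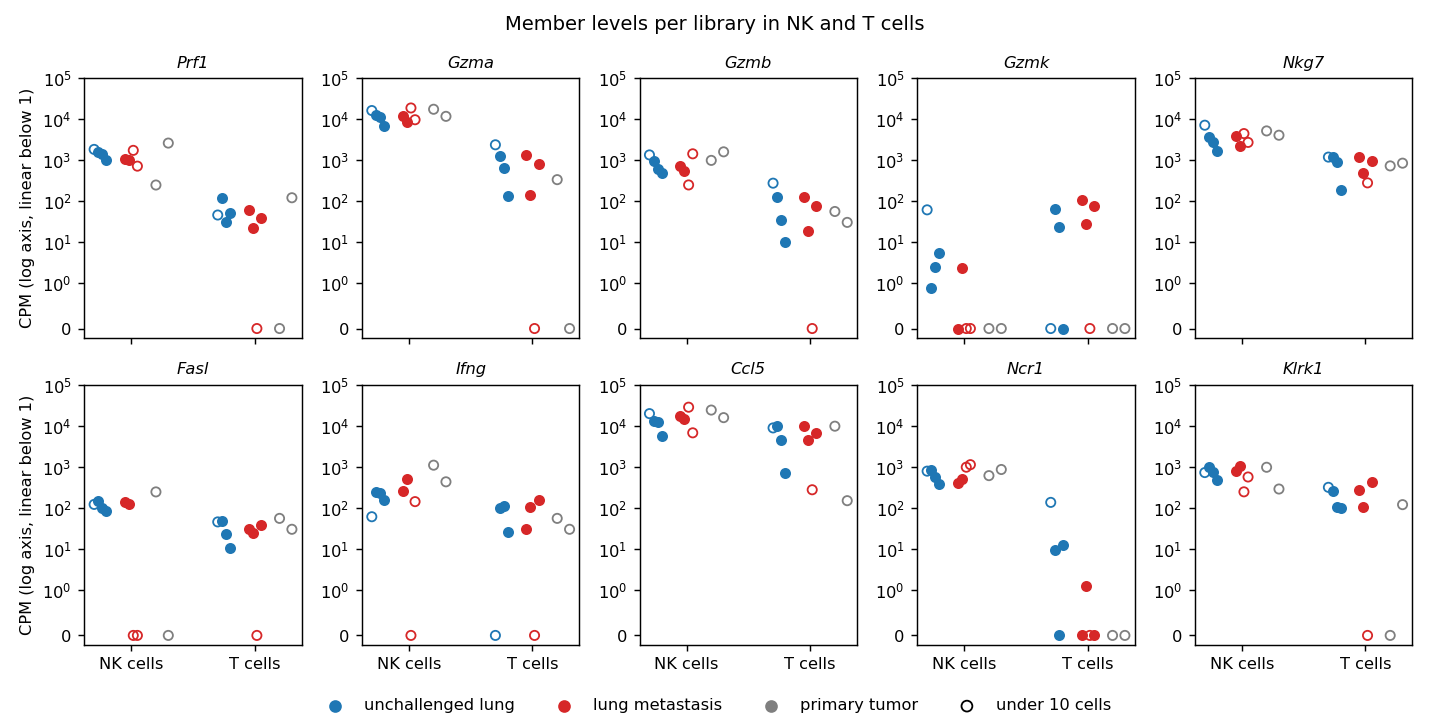
CPM of each member (1 panel each, log axis, linear below 1) in NK cells and T cells, 1 point per library, colored by tissue; open points are libraries with under 10 cells of the class. Ncr1 and Prf1 separate NK cells from T cells in every library with at least 10 cells, while the Ccl5 ranges of both classes overlap. Gzmk lies higher in T cells, except in unchallenged lung replicate 6, where T cells held 0 CPM and NK cells 5.44 CPM.

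Part of the UMIs in other cells can be free RNA taken up with a droplet, and the thinned Gzma shares in alveolar type 2 cells and endothelium of lung were highest in replicate 6. Alveolar type 2 cells are epithelium without a granule program. In that library 14.1% of them held a Gzma UMI, 10.2% a Ccl5 UMI and 5.2% an Nkg7 UMI after thinning (median of 1695 UMIs per cell before it), against 0.624% for Gzma in replicate 5. In lung endothelium the Gzma share was 0.208%, 3.03%, 1.77% and 4.71% in replicates 1, 4, 5 and 6, and 0.561% in that of metastasis replicate 4. At full depth the order of lung replicates 4 and 6 turned, with a Gzma UMI in 154 of 1563 cells (median of 4413 UMIs) and in 43 of 559 (median of 1579 UMIs). Over all members, thinned endothelial cells held UMIs of 0.115, 0.126 and 0.101 members on average in lung replicates 4 and 6 and metastasis replicate 4. The lowest Gzma share of a lung NK library was 89.7%, in replicate 6 with a median of 1440 UMIs per cell. For each 100 Gzma UMIs, NK cells of replicate 6 held 85.6 Ccl5 UMIs, alveolar macrophages 93.3, ciliated cells 99.6, B cells 103, alveolar type 2 cells 75.9 and fibroblasts 119. T cells of the same library held 528. Levels of Gzma, Prf1, Nkg7 and Ccl5 in these other classes of replicate 6 were therefore not read as expression.

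**Figure D3:**
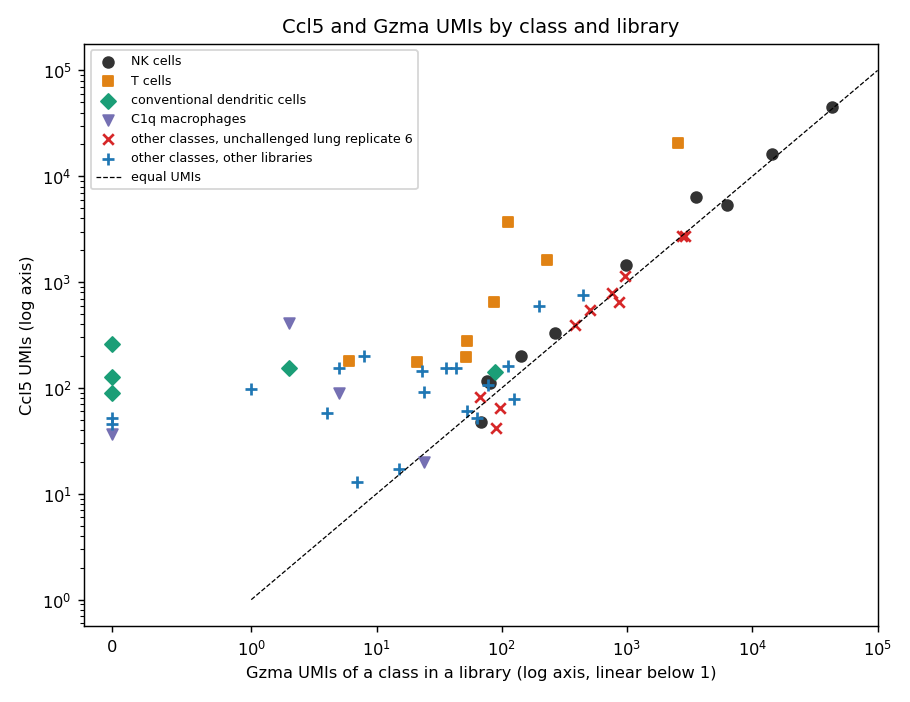
Ccl5 UMIs (log axis) against Gzma UMIs (log axis, linear below 1) of each class in each library with at least 20 UMIs of both genes together; the dashed line marks equal UMIs. Most other classes of unchallenged lung replicate 6 lie near the line with NK cells, while T cells, conventional dendritic cells and C1q macrophages of the primary tumors lie above it, with 0 to 2 Gzma UMIs in the dendritic cells and macrophages of the primary tumors. Other classes of other libraries lie on both sides of the line, with Ly6c2 monocytes of metastasis replicate 1-3 far above it (156 Ccl5 and 5 Gzma UMIs).

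Conventional dendritic cells held Klrk1 and Ccl5 where Gzma was at or near 0, except in unchallenged lung replicate 6, where they held 135 CPM of Gzma, and in metastasis, where 23 of them held 17 Klrk1 but only 3 Ccl5 UMIs. In unchallenged lungs their Klrk1 level of 39.2 to 98.1 CPM (4 libraries) lay below the T cell range and above that of every remaining leukocyte class, of which the highest library had 25.8 CPM. Ccl5 was at 873, 1453, 42.1 and 220 CPM in replicates 1, 4, 5 and 6, with 0, 2, 2 and 88 Gzma UMIs. In primary tumors 31 dendritic cells of replicate 1-3 held 128 Ccl5 UMIs (696 CPM), 30 Klrk1 UMIs (163 CPM) and 0 Gzma UMIs, and 196 of replicate 4 held 259 (266 CPM), 85 (87.3 CPM) and 0. C1q macrophages of primary tumor replicate 4 (2014 cells) held 407 Ccl5, 96 Klrk1 and 2 Gzma UMIs, which is 33.7 CPM of Ccl5 and 7.96 CPM of Klrk1. Ly6c2 monocytes of metastasis replicate 1-3 (46 cells) held 156 Ccl5, 4 Klrk1 and 5 Gzma UMIs. Those of lung replicates 4, 5 and 6 held 91, 146 and 789 Ccl5 UMIs beside 24, 23 and 765 of Gzma. The source of these UMIs was not tested. Dendritic cells were 3.50% of the primary tumor cells and held 42.1% of the 273 Klrk1 UMIs and 28.1% of the 1378 Ccl5 UMIs. C1q macrophages were 37.2% of the cells and held 41.8% and 32.2%, which is near their share of the cells. MM cells of the 4 sorted MM libraries had 4.55 to 6.99 CPM of Ccl5, with a UMI in 0.297% to 0.692% of cells after thinning, and 0 to 7 Gzma UMIs per library.

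The T cells were a mixture. In unchallenged lungs 212 of them held a Cd8a or Cd8b1 UMI and no Cd4 UMI, 164 held Cd4 alone, 8 held both and 393 neither, and 174 of the 212 came from replicate 4. Summed over libraries, T cells with Cd8 had 20500 CPM of Ccl5, 2486 of Gzma, 268 of Gzmb, 234 of Prf1, 140 of Gzmk and 2165 of Nkg7. T cells with Cd4 had 2219, 393, 9.79, 30.6, 7.34 and 546 CPM of the same genes. In these sums, to which replicate 4 gave 174 of 212 cells with Cd8 and 109 of 164 with Cd4, all members except Ncr1 were higher beside Cd8. Taken apart, replicate 4 had the same order, while Fasl was lower beside Cd8 in replicates 5 and 6 and Ifng in replicate 6, on at most 3 UMIs a group, and Gzmk had no UMI in replicate 6. Ccl5 was higher beside Cd8 in each, with 22799 against 2680, 12225 against 1607 and 2245 against 209 CPM. Ccl5 in T cells with Cd8 was above that of NK cells in replicate 4 (22799 against 13529 CPM) and below it in replicates 5 (12225 against 13034 CPM) and 6 (2245 against 5844 CPM). Gzma beside Cd8 and Cd4 was at 2826 and 356 CPM in replicate 4 and at 890 and 686 CPM in replicate 5, the latter on 13 and 27 cells. In replicate 6 the 15 and 3 UMIs (237 and 41.7 CPM) lie around the level of cells that should lack Gzma, and no difference was read from them. In metastasis replicates 1-3 and 4 the Gzma level beside Cd8 was 2585 CPM (11 cells) and 355 CPM (34 cells), and that of Gzmk 262 and 113 CPM. The share of T cells with Cd8 alone differed between libraries, 32.6%, 17.8% and 15.2% in lung and 39.3%, 16.2% and 30.0% in metastasis, and its part in the T cell levels above was not tested.

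**Figure D4:**
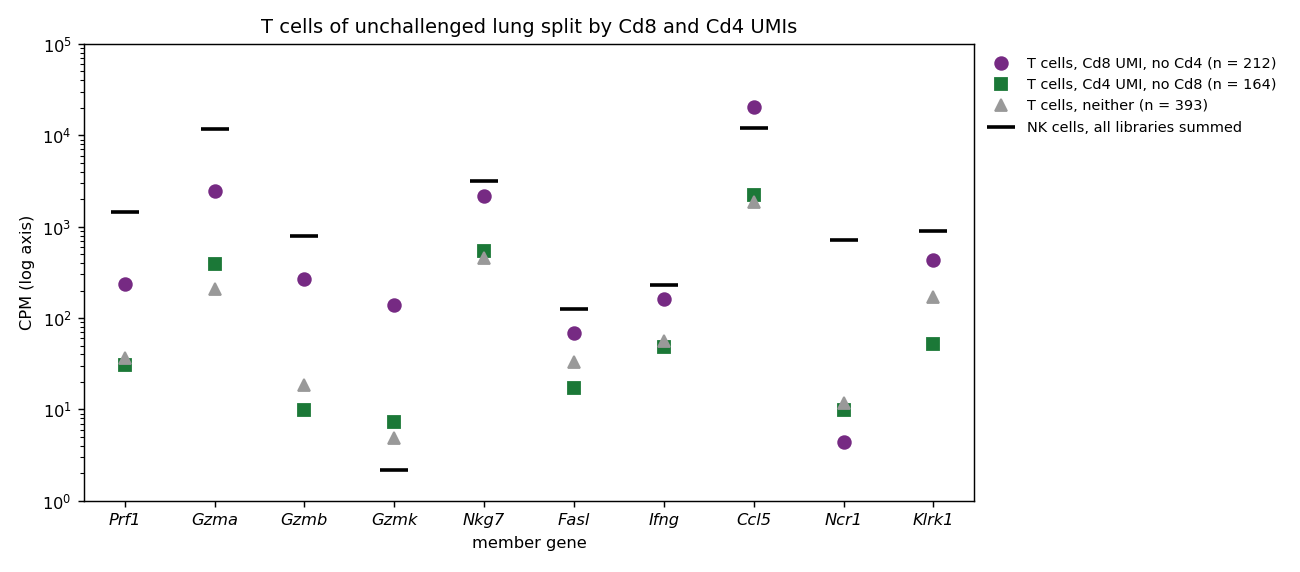
Level of each member (CPM, log axis) in T cells of unchallenged lung with a Cd8 UMI, with a Cd4 UMI or with neither, all libraries summed, and in NK cells (bars). In these sums, mostly of replicate 4, circles (Cd8) lie above squares (Cd4) for every member except Ncr1, and above the NK cell bar for Gzmk and Ccl5, the latter in replicate 4 alone when the libraries are taken apart.

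Lung metastases and unchallenged lungs were compared over libraries with at least 10 cells of the class, 2 against 3 for NK cells (metastasis replicates 1-3 and 4) and 3 against 3 for T cells. No member was called by the edgeR quasi-likelihood test with Benjamini-Hochberg adjustment in either class. In NK cells 0 of 9 members tested passed, where 0.0117% of the 8550 genes tested were called, and Gzmk fell below the filter on low counts. In T cells 0 of 9 passed, where 0.142% of 5635 genes were called, and Ncr1 fell below the filter. DESeq2 also called 0 members in both classes. Without adjustment 1 member in either class had a p under 0.05, where 4.16% of all genes did in NK cells (2.69% lower in metastasis) and 2.36% in T cells (1.19% lower).

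The member with the largest NK cell difference was Ifng, 0.91 higher in metastasis on the log2 scale (SE 0.34, 95% interval 0.14 to 1.68, edgeR adjusted p = 0.996). Ccl5 followed with 0.57 (SE 0.37, interval -0.28 to 1.42, edgeR adjusted p = 0.997). Only these 2 members had both metastasis libraries above all lung libraries in CPM, which 11.6% of all genes tested did, and none had both below them, which 12.8% did. The Ifng value rested on metastasis replicate 4 and was 0.15 without it, with the remaining library assumed to vary like the others. Ccl5 was at 0.28 without unchallenged lung replicate 6. Between the replicates 4 of both tissues, which carry the same run number in the labels, the differences were 1.06 for Ifng and 0.18 for Ccl5. All values between the replicates 4 are log2 differences of CPM plus 1, without the normalization of the edgeR fit. The labels do not say which steps a run comprised. Strict NK cells were those with no Cd3 UMI, fewer than 2 B cell markers and fewer than 2 myeloid markers, chosen after seeing the data. In them the Ifng and Ccl5 differences were 0.97 and 0.63. For the granule genes the edgeR differences were -0.39 for Prf1 (SE 0.28), -0.057 for Gzma (SE 0.34), -0.19 for Gzmb (SE 0.34) and 0.11 for Nkg7 (SE 0.39). The mean CPM of Gzma, 10456 in metastasis and 10428 in lung, goes against its sign, which is not read as a direction. Between the replicates 4 they were lower in metastasis, with -0.62 for Prf1, -0.60 for Gzma, -0.81 for Gzmb and -0.73 for Nkg7, as was Ncr1 with -0.73. Differences were not tested between members. The metastasis libraries came from runs 1 and 2 and the lung libraries from runs 2 and 3, so that run and tissue are partly confounded.

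In T cells the largest member difference was a Prf1 level lower in metastasis by 1.47 on the log2 scale (SE 0.55, interval -2.62 to -0.32, edgeR adjusted p = 1.00). Its CPM ranges overlapped, as did those of all members in T cells (5.31% of all genes had every metastasis library above every lung library and 3.89% below), with 22.3 to 61.8 in metastasis and 31.8 to 122 in lung, and the value was -0.63 without unchallenged lung replicate 4 and -0.68 without metastasis replicate 4. The Prf1 UMIs were 249, 11 and 20 in lung replicates 4, 5 and 6 and 4, 18 and 1 in metastasis replicates 1-3, 4 and 6. Gzmb was at -0.88 (SE 0.75), Ccl5 at 0.34 (SE 0.55) and Gzma at -0.11 (SE 0.63). The mean CPM of the 3 libraries a tissue went against the sign of the fitted difference for Gzmb, 73.4 in metastasis and 56.6 in lung, for Gzma, 763 and 682, and for Fasl (-0.34), 31.6 and 27.3, so that none of the 3 has a direction here. The Gzmb and Fasl values of metastasis replicate 6 in these means were on fewer than 3 UMIs each. Without lung replicate 6 the fitted values were -1.45 for Gzmb and -0.63 for Gzma, and those of Ccl5 and Nkg7 turned to -0.23 and -0.49. Between the replicates 4 of the same run the T cell differences were -3.14 for Gzma, -2.68 for Gzmb, -2.40 for Prf1 and -1.12 for Ccl5. Those 2 libraries differed in T cells with Cd8 alone, 16.2% in metastasis and 32.6% in lung, and in T cells with UMIs of at least 2 NK markers, 6.67% and 17.4%, and the part of either was not tested.

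**Figure D5:**
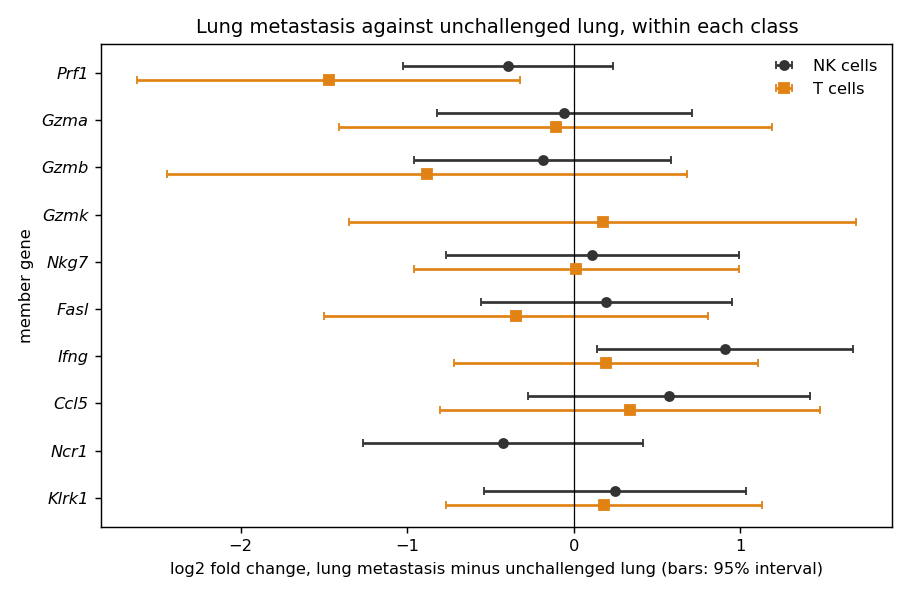
Log2 fold change of each member, lung metastasis minus unchallenged lung, from edgeR with its 95% interval (bars), in NK cells (circles, 2 against 3 libraries) and T cells (squares, 3 against 3). The interval leaves out 0 only for Ifng in NK cells (0.14 to 1.68) and Prf1 in T cells (-2.62 to -0.32), and neither passed the adjustment.

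The pathway around the members, 43 further genes of granule content and release, protection, cytokines, receptors and transcription factors, was read the same way. In NK cells 36 were tested and 0 called, with 3 higher and 1 lower at an unadjusted edgeR p under 0.05. Over all 8550 genes tested, 126 were higher and 230 lower at that p. The median log2 difference of the 36 was -0.033, against a median of -0.043 over all genes. The 3 higher genes were the chemokines Ccl4, at 2180 and 2740 CPM in metastasis and 558 to 1436 CPM in lung (1.33, SE 0.39, edgeR adjusted p = 0.996), and Ccl3, at 1216 and 1300 against 363 to 751 CPM (1.19, SE 0.33), and the granule docking gene Rab27a (0.79, SE 0.31). Each had both metastasis libraries above all lung libraries in CPM, as did 11.6% of all genes tested. The granzyme Gzmm (-1.52, SE 1.01) and the death ligand Tnfsf10 (-1.23, SE 0.80) had differences of like size at low levels, 2.39 to 32.6 CPM in all libraries. The 1 lower gene was Unc13d, which primes granules for release (-1.19, SE 0.44). In T cells 28 were tested and 0 called, with Klrc1, an inhibitory receptor gene, lower in metastasis at 0 to 30.9 CPM against 48.9 to 69.4 CPM (-2.09, SE 0.49, edgeR adjusted p = 0.178). It alone had an unadjusted edgeR p under 0.05, where 66 of all 5635 genes tested were higher and 67 lower at that p. Its metastasis libraries all lay below the lung libraries, as did those of 3.89% of all genes. Klrc2, an activating receptor gene, was at 0 to 235 CPM against 17.3 to 71.0 CPM, and its fitted value (-1.48, SE 0.76) goes against its highest library, which was of metastasis. The median of the 28 genes was -0.15 against -0.025 for all genes.

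Primary tumors had too few cytotoxic cells for a test, 2 NK cells in each of 2 libraries, which held nearly all of the Gzma there. The 4 cells carried 96.5% of the 231 Gzma UMIs of the primary tumor libraries. The 2 of replicate 1-3 held 142 Gzma, 200 Ccl5, 42 Nkg7, 8 Gzmb, 2 Prf1, 9 Ifng, 5 Ncr1, 8 Klrk1, 2 Fasl and 0 Gzmk UMIs. The 2 of replicate 4 held 81 Gzma, 111 Ccl5, 28 Nkg7, 11 Gzmb, 18 Prf1, 3 Ifng, 6 Ncr1, 2 Klrk1 and no Fasl or Gzmk UMI, and both also held UMIs of at least 2 of 4 myeloid markers. T cells numbered 6 and 9 (of the 9, 77.8% held UMIs of at least 2 of 4 myeloid markers), with 179 and 5 Ccl5 UMIs, 13 and 28 Nkg7 UMIs, 6 and 0 Gzma UMIs and no Gzmk UMI in either library. No other member exceeded 4 UMIs in them.

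Over 26 sums of a leukocyte class in a tissue, the members' levels (log2 of CPM + 1) were compared by Pearson's r. It was 0.83 to 0.97 among Prf1, Gzma, Gzmb, Nkg7, Fasl, Ifng and Ccl5, with the highest value between Prf1 and Gzma. The receptors Klrk1 and Ncr1 had 0.66 with each other, and each had up to 0.86 with the members just named, at the least 0.67 between Klrk1 and Gzma and 0.68 between Ncr1 and Ccl5. Gzmk had 0.35 to 0.68 with the other members. These points share libraries and free RNA, and r is a description. The genes most like each member were Eomes for Gzma (0.94) and Prf1 (0.97), Samd3 for Gzmb (0.99), Il2rb for Nkg7 (0.98), Klrg1 for Fasl (0.99), Sytl3 for Ifng (0.97), Adamts14 for Ncr1 (0.98), Chn2 for Klrk1 (0.89), Gm2682 for Ccl5 (0.94) and Gm14718 for Gzmk (0.96). Eomes was itself among the markers that named the NK cells. Gzmk was at a median of 0 CPM in most leukocyte classes of lung. The next genes for it were Kcnc1 (0.95) and the olfactory receptor gene Olfr1259 (0.93), and the counts behind them were not examined.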

How the data were processed

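Libraries were made with 10x Genomics 3' v3.1 chemistry. The authors aligned them to GRCm38 (mm10) with Cell Ranger 6.1.1 and used Seurat 3.2.2, per the labels and methods. The deposited counts are raw UMIs per gene and cell, filtered by the authors for cells. Deposited normalized values were not used. Of library names with identical barcodes and counts 1 was kept. Here cells were clustered with Seurat 5.3.0 (2000 variable genes without the members, 17 principal components, 20 neighbors, resolution 0.5) and named from marker lists by a scoring rule set after the clusters had been seen. Doublets were not removed beyond the authors' filter. UMIs were summed per library and class with at least 10 cells and fitted with edgeR 4.0.16 (filterByExpr, TMM, quasi-likelihood F test, Benjamini-Hochberg over all genes tested, call below 0.05). DESeq2 1.42.0 was an alternative. Differences inside a library and between the replicates 4 used CPM plus 1, without TMM. A count of 0 allows 3 counts. Printed 95% intervals of fold changes are from the edgeR fit and include the spread between libraries. Shares used cells thinned to 1000 UMIs. Of the pathway genes, those with the largest differences are named. Positions are from GENCODE vM21, promoters from RefSeq (GRCm38.p6). The scripts were tested on simulated data. The members, lists and tests were chosen with earlier results of these data known. The libraries tested against each other, lung metastasis and unchallenged lung, came from different mice. Primary tumor and metastasis of replicates 5, 6 and 1-3, and TME and MM cells of a tissue, share mice.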

Additional observations from a re-analysis of the deposited data

Results flagged for a closer look

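In groups of 4 libraries, the highest or lowest library stood apart by Dixon's test in 8 of 41 groups of a member, class and tissue. Chance gives about 1 in 20 where groups are independent. These groups share libraries and are not independent, so no conclusion was drawn from the number. Of the 8 cases, 7 were unchallenged lung replicate 6. Its Ly6c2 monocytes held 161 CPM of Gzma (the other libraries 0 to 12.8), 13.5 of Gzmb (0 to 1.06), 6.52 of Ncr1 (0 to 0.531), 55.5 of Nkg7 (0 to 4.96) and 28.6 of Prf1 (0 to 1.06), its conventional dendritic cells 135 CPM of Gzma (0 to 19.0), and its alveolar macrophages 2.78 CPM of Fasl (others 0). Its Ly6c2 monocytes held 103 Ccl5 UMIs for each 100 Gzma UMIs and its NK cells 85.6. The other case was Ccl5 in C1q macrophages of metastasis replicate 1-3, at 84.4 CPM against 6.38 to 11.6 in the other libraries, with 89 Ccl5 and 5 Gzma UMIs in 149 cells.

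The sorted MM library of lung metastasis replicate 4, which entered no comparison, held 5 NK cells and 21 T cells, and members in them exceeded the 3 counts that a count of 0 allows. The NK cells carried 46 Gzma, 11 Prf1, 25 Nkg7, 5 Ifng, 7 Ncr1, 18 Klrk1 and 187 Ccl5 UMIs. The T cells carried 8 Gzma, 6 Nkg7, 6 Klrk1 and 71 Ccl5 UMIs.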

How the results depend on the processing

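The number of members called stayed at 0 in NK cells in all alternatives run and in T cells in all but 1: with replicates 5 and 6 alone (1 metastasis library of 10 cells against 2), 1 member, Ccl5, was called (1.01, edgeR adjusted p = 0.0133), with the lone library assumed to vary like the lung libraries. The count of all genes called moved. In NK cells it was 1, and 115 without the filter on low counts, 3 with DESeq2, 0 with the member genes kept in the clustering, 0 with cells taken by marker UMIs, and 0 to 4 with 1 library left out. In T cells it was 8, and 52 without the filter, 16 with the replicate block, 4 with at least 20 cells a library, 0 with cells taken by marker UMIs, 63 with replicates 5 and 6 alone, 1 with strict cells (Cd3 UMI, no B or myeloid marker UMIs, chosen after seeing the data), and 3 to 26 with 1 library left out. Some differences changed sign. In NK cells Gzma was 0.028 with members kept, 0.085 with marker UMIs and 0.00462 with strict cells, and Gzmb 0.014 with marker UMIs. In T cells Nkg7 was -0.20 without the filter, -0.013 with at least 20 cells and -0.13 with marker UMIs, Gzma 0.050 with DESeq2, 0.69 with replicates 5 and 6 and 0.32 with strict cells, Gzmb 0.17 with DESeq2 and 1.46 with replicates 5 and 6, Gzmk -0.94 with the replicate block and -0.089 with strict cells, and Klrk1 -0.22 with the block, -0.14 with at least 20 cells and -0.088 with strict cells. With 1 library left out, ranges that crossed 0 were, in NK cells, Gzma -0.33 to 0.16, Gzmb -0.38 to 0.15, Nkg7 -0.32 to 0.44 and Klrk1 -0.10 to 0.56, and in T cells Ccl5 -0.23 to 1.22, Fasl -0.68 to 0.61, Gzma -1.32 to 0.63, Gzmb -1.67 to 0.73, Gzmk -0.37 to 1.93, Ifng -0.43 to 0.45, Klrk1 -0.16 to 0.79 and Nkg7 -0.49 to 0.49. The causes were not tested. Members higher in lung NK cells than in all other leukocytes were 9 by thinned share, 7 at full depth, 7 with members kept and 8 by CPM.

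T cell libraries of both tissues shared numbers 4 and 6 only, from different mice, and the correlation of their deviations was -0.00623, so that the replicate block (16 genes, 0 members called) pairs numbers and not animals. No paired analysis was possible because of a single shared number in NK cells. The replicate 5 and 6 alternative in NK cells and every comparison with primary tumor were not run for lack of libraries with 10 cells. The comparisons rest on 2 or 3 libraries per tissue, with as few as 10 cells in 1 of them, and the smallest difference they could detect was not measured.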

Other observations

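Partners of the members on other cells were read as levels. Fas, the receptor of Fasl, was at 140 to 187 CPM in lung endothelium, 65.1 to 251 CPM in metastasis endothelium and 7.09 to 36.0 CPM in primary tumor endothelium, while MM cells of the sorted MM libraries held 0.567 to 1.47 CPM. Ifngr1, the receptor chain that binds Ifng, was at 434 to 769 CPM in lung NK cells themselves and at 20.6 to 41.0 CPM in the sorted MM cells. Ccr1, a receptor of Ccl5, was at 741 to 1083 CPM in lung neutrophils. Serpinb9, an inhibitor of Gzmb that protects the killer cell, was at 289 to 393 CPM in lung NK cells and 23.2 to 28.9 CPM in lung T cells. Raet1e, a ligand gene of the Klrk1 receptor, was at 7.99 to 24.1 CPM in primary tumor endothelium, 0 to 0.813 CPM in lung endothelium and 3.85 to 20.6 CPM in sorted MM cells. These levels were not tested.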
